A study of Mus musculus with 8 samples.

Results

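Untreated HM-1 and R1 cells, both mouse embryonic stem (ES) cell lines, were compared directly on 4 of the 8 two-colour cDNA arrays of the study. The 4 arrays were taken by their titles, which name them as run without nocodazole, the microtubule poison given to the cells of the other 4. On every array cDNA of HM-1 and of R1 competed for the same spots, so each spot gives a ratio between the lines and no level of either. Per the labels, HM-1 carried the dye Cy5 on untreated replicates 1 and 2 and Cy3 on replicates 3 and 4, with R1 in the other dye. On the nocodazole side HM-1 was in Cy5 on replicates 1 to 3 and in Cy3 on replicate 4. The labels give no genotype, passage, feeder layer or medium for either line. The study's protocols speak of organs and of a pool of control animals, while both channels are labelled as cell lines. Separate cultures are not named for the replicates, so the p-values here reflect differences among the 4 hybridisations, which could be purely technical.

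ES cells come from the inner cell mass of the blastocyst and renew themselves while keeping the capacity to form every tissue of the embryo. A network of transcription factors that includes Oct4 (Pou5f1), Sox2, Esrrb and the Klf factors holds this state. Cultures also hold a varying share of cells that leave it, often towards extraembryonic endoderm, which makes Dab2, Sparc and other matrix and uptake proteins. Lines can differ in strain, in sublines and in culture history. HM-1 is known as a line that lacks Hprt, the enzyme that salvages hypoxanthine and guanine, which makes it useful for gene targeting with selection.

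The deposited table holds 20355 probes, of which between 17928 and 18144 had a value on an untreated array. The log2 ratios of an array had an SD between 0.84 and 0.91 over probes. Dim spots, whose ratio is that of a pair of whole numbers no larger than 10, made up 12.7% to 19.3% of an array, beside 4.49% to 4.71% found by the same search with the array's offset shifted. A gene's value is the mean of its probes, and 14446 features had a value on at least 3 of the 4 arrays, 8947 of them named genes. All values below are log2 ratios, centred on the array median, with the sign that the table gives. The labels do not state which line is the numerator, so no line is called higher, and a log2 ratio of 1 or -1 stands for a 2-fold difference between the lines. If the ratios were ratios of the dyes, the Cy3 arrays would have to be turned, and the component that follows the dye label would then be the ratio between the lines. A denominator of 0 is coded. The code is 17 and 16.8 on replicates 1 and 2 and -16.9 and -16.8 on replicates 3 and 4. Its sign follows the dye label, and whether the Cy3 arrays were already turned was not tested. Both components are given from the same fit.

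No gene passed the test for a difference between the lines. With limma, 0 of 14446 features passed an adjusted p of 0.05 (0% called), and the smallest adjusted p was 0.656. An unadjusted p under 0.05 was reached by 1065 features, 7.37% of those tested, with 535 positive (3.7%) and 530 negative (3.67%). The component that followed the dye label also held 0 features past the threshold, at a smallest adjusted p of 0.397, with 1379 features (9.55%) at an unadjusted p under 0.05. The sign of a value repeated on all 4 arrays for a small part of the features. Of 12757 features with 4 values, 863 (6.76%) were positive on all 4 and 920 (7.21%) were negative on all 4. Among the 8012 named genes with 4 values these shares were 6.09% positive and 7.89% negative. A larger part changed sign with the label on all 4 arrays: 1352 features (10.6%) were positive where HM-1 was in Cy5 and negative where it was in Cy3, and 1255 (9.84%) did the reverse. An exact sign-flip test over 4 arrays cannot give a two-sided p below 0.125.

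The arrays of one dye label were alike only weakly. Over features, which are not independent replicates, Pearson's r was 0.0619 between replicates 1 and 2 and 0.214 between replicates 3 and 4. Between arrays of opposite label r lay from -0.188 to -0.0611. Without the dim values the same r was 0.092 and 0.312 within a label and -0.266 to -0.0832 across labels. The plot of one label's mean against the other's shows the 8012 named genes with 4 values as a cloud around 0. The leading genes lie in the quadrants that their signs fix, several of them near the centre, such as Rps15a at 0.69 and 0.40.

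**Figure D1:**
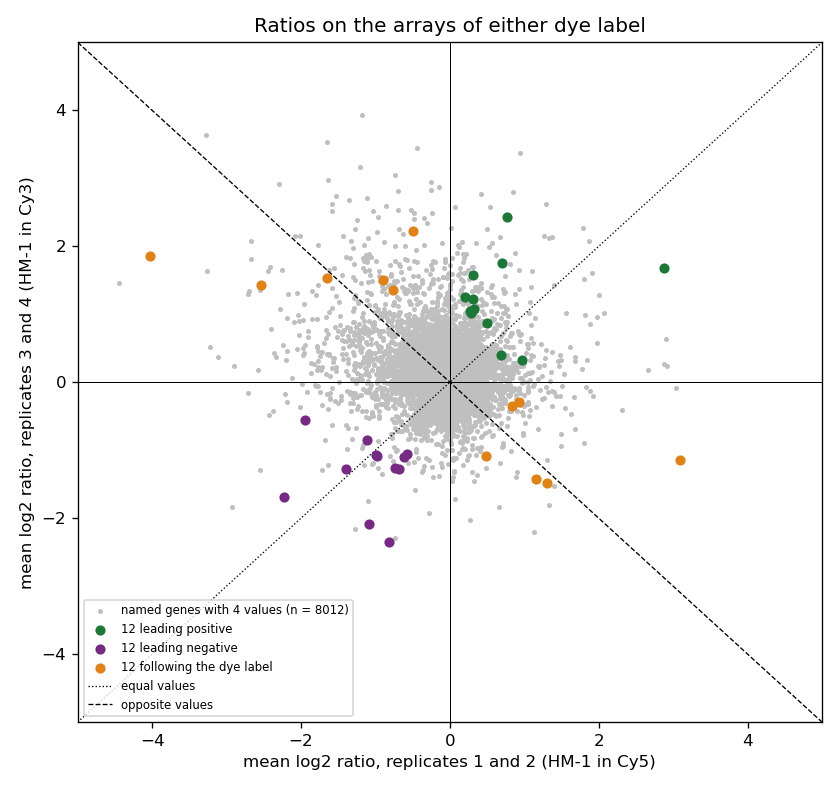
Mean log2 ratio on replicates 1 and 2 (HM-1 in Cy5, horizontal axis) against the mean on replicates 3 and 4 (HM-1 in Cy3, vertical axis); each grey point is 1 of 8012 named genes with a value on all 4 arrays. Green and purple points are the 12 leading positive and 12 leading negative genes, orange points the 12 genes that follow the dye label; the dotted line marks equal values and the dashed line opposite values.

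The genes named first are the 12 positive and 12 negative genes of smallest unadjusted p among those with one sign on all 4 arrays and a mean of at least 0.5 in size. That choice fixes their sign, and each had a limma adjusted p of 0.656. The negative genes include the endocytic adaptor Dab2 and the collagen chaperone Serpinh1, both on the list of primitive and parietal endoderm genes, the keratin Krt8 and the heparan sulfate proteoglycan Gpc4. The positive gene of smallest p was the reductase Dhrs13, and the membrane protein Tmem140, with the largest mean, had the largest p of the 12. Klf2, a transcription factor of the naive pluripotency network, is among the positive genes.

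The 3 promoters shown here belong to Dab2, Krt8 and Cyp2c70, which are among the leading negative genes and hold the GATA motif. Each is the RefSeq window (GRCm38.p6) from 250 bases before to 50 bases after the first listed start, 5′ to 3′ on the gene's strand. Capitals mark AGATAA or TGATAA (the GATA motif) and TATAAA (the TATA box), searched on both strands.
Dab2, chr15:6299539-6299838, plus strand: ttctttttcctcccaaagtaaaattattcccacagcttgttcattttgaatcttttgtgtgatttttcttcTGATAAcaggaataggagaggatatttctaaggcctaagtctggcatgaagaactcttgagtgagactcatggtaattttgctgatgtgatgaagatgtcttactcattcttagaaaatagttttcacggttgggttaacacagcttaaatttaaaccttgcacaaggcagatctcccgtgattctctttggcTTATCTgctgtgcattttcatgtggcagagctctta
Krt8, chr15:102004293-102004592, minus strand: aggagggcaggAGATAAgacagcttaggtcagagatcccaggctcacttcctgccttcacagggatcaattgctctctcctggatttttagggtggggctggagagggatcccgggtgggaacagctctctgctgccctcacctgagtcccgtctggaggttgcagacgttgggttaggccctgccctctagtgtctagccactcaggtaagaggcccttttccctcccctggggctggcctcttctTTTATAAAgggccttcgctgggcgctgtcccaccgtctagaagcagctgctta
Cyp2c70, chr19:40187237-40187536, minus strand: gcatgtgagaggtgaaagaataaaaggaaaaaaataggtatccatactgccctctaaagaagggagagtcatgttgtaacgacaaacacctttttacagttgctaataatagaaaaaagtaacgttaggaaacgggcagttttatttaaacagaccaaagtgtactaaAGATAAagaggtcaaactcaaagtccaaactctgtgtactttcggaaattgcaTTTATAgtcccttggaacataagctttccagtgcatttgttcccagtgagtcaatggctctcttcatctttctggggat

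Promoter sequence was found for 10 of the 12 leading negative genes and for all 12 leading positive genes. The GATA motif was present in 5 of the 10 negative genes (Dab2, Krt8, Cyp2c70, Serpinf1 and Cpb1) and in 1 of the 12 positive genes (Ercc6), against 10.5% of the 7243 tested genes with a promoter of the same length. TATAAA was present in 3 of the 10 (Krt8, Cyp2c70 and Cpb1) and 1 of the 12 (Ifi205), against 8.05%. The GC box GGGCGG was present in 4 of the 10 and 8 of the 12, against 60.6%. The E-box CACGTG was present in 0 of the 10 and 2 of the 12, against 10.2%. These counts describe letters in a window, and the genes were picked by their ratios.

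Dab2, the adaptor that sorts cargo for endocytosis, had log2 ratios of -0.92, -1.06, -1.21 and -0.94 on replicates 1 to 4, a mean of -1.03 ± 0.13 (SD, n = 4), which is a 2.05-fold difference between the lines. The SE of the fit was 0.10. The arrays of either dye label gave nearly the same value, -0.99 in Cy5 and -1.08 in Cy3. Cryab, a small heat shock protein, had values of -1.12, -0.85, -1.004 and -1.16 (mean -1.03 ± 0.14). Its 2 probes had means of -0.80 and -1.27, so both were negative. Gpc4, a cell surface proteoglycan, had values of -1.21, -1.002, -0.75 and -0.96 (mean -0.98 ± 0.19), with probe means of -0.996 and -0.964. Cyp2c70, a cytochrome P450 known from bile acid metabolism in the liver, had values of -1.46, -1.34, -1.43 and -1.11 (mean -1.34 ± 0.16, a 2.52-fold difference). In these 4 genes the spread over arrays was small beside the mean, and no spot was dim.

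Krt8, a keratin of simple epithelia, had values of -0.67, -0.70, -1.20 and -1.34 (mean -0.98 ± 0.34). Serpinh1, which folds collagen in the endoplasmic reticulum, followed the same order with -0.52, -0.62, -1.03 and -1.07 (mean -0.81 ± 0.28). Spink1, a secreted trypsin inhibitor, had values of -0.61, -0.88, -1.25 and -1.27 (mean -0.9995 ± 0.32). These 3 genes were negative on every array and larger in size on both arrays with HM-1 in Cy3. Serpinf1, a secreted serpin, ran the other way with -1.84, -2.06, -0.47 and -0.64 (mean -1.25 ± 0.82), and 2 of its 4 spots were dim. Cpb1, a carboxypeptidase of the pancreas, had values of -2.28, -2.18, -1.27 and -2.10 (mean -1.96 ± 0.46), also with 2 of 4 spots dim. The other negative genes were Catsper2 (mean -1.58 ± 0.92), BC003965 (-0.86 ± 0.29) and Vsir (-1.59 ± 0.69). With the coded values kept Vsir had a mean of 0.66 in place of -1.59, so its sign depends on them.

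Among the positive genes, Klf2 had values of 0.53, 0.45, 0.89 and 0.85 (mean 0.68 ± 0.22). Rps15a, a protein of the small ribosomal subunit, had values of 0.67, 0.71, 0.40 and 0.41 (mean 0.55 ± 0.17), the smallest spread of the 12. Tmem140 had values of 3.15, 2.61, 2.57 and 0.78 (mean 2.28 ± 1.03), with replicate 4 far below the other 3 arrays. Dhrs13 had values of 0.39, 1.15, 2.36 and 2.52 (mean 1.60 ± 1.02), larger on both Cy3 arrays. Adamts17, a secreted metalloprotease, had values of 0.55, 0.84, 1.98 and 1.54 (mean 1.23 ± 0.65). Of its 2 probes, 1 had 3 dim values and the other was not of one sign, with -0.17, 0.22, 3.01 and 0.84. Ercc6, which acts in transcription-coupled DNA repair, had 0.27, 0.35, 1.21 and 1.22 (mean 0.76 ± 0.53). Lpcat1, an enzyme of phospholipid remodelling, had values of 0.87, 1.06, 0.30 and 0.34 (mean 0.64 ± 0.38). Its 2 probes disagreed, with means of 1.28 and 0.01. The other 5 were Cep19 (0.95 ± 0.75), Gfra1 (0.73 ± 0.62), Slc17a7 (0.70 ± 0.43), Ifi205 (0.66 ± 0.47) and Csnk1e (0.65 ± 0.44). For these 5, Dhrs13, Adamts17, Ercc6 and Klf2, both Cy3 arrays lay above both Cy5 arrays. Of the Cep19 probes 1 had a mean of 2.13, and the others had means of 0.47 and 0.23. Dim spots made up 17 of 68 spots of the 12 positive genes and 9 of 62 of the 12 negative genes.

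**Figure D2:**
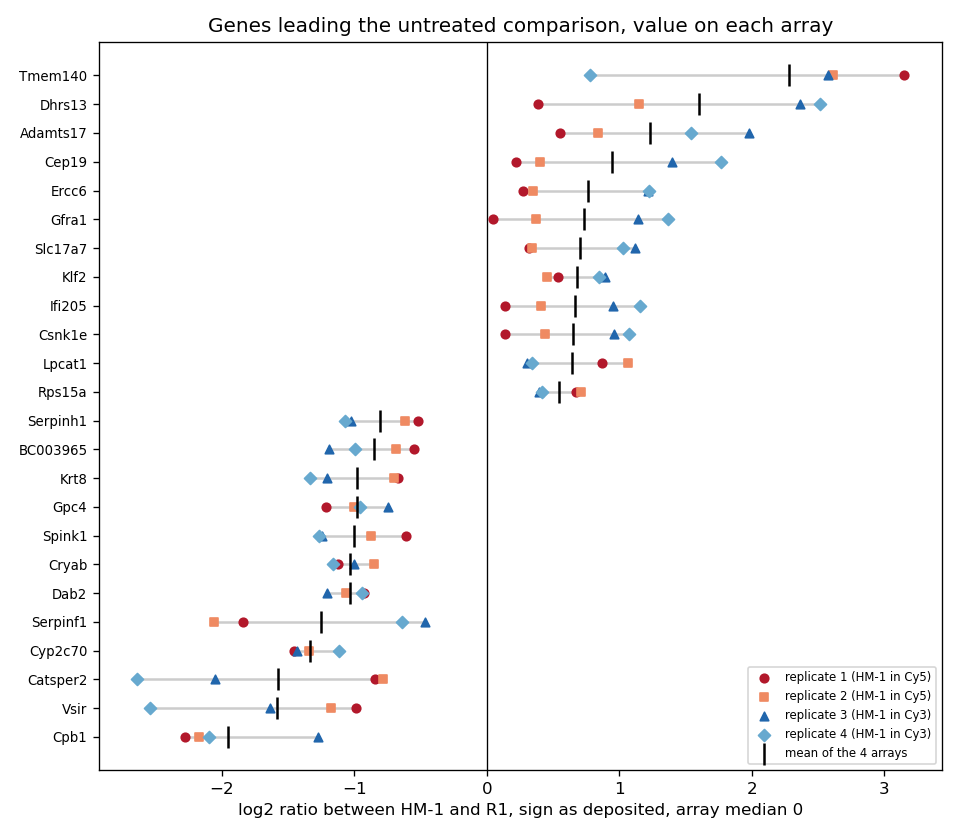
Log2 ratio of each leading gene on each of the 4 untreated arrays, with the sign of the table; red and orange symbols are arrays with HM-1 in Cy5, blue symbols arrays with HM-1 in Cy3, and the black tick is the mean. Dab2, Cryab and Cyp2c70 lie close together on all 4 arrays, while Dhrs13, Serpinf1 and Catsper2 split by dye label.

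Genes with several probes allow a check of one spot against another on the same arrays. Of 2377 genes with at least 2 probes, 1091 (45.9%) had probe means of one sign. Of the genes negative on all 4 arrays, 120 of 152 (78.9%) had probe means of one sign, and of those positive on all 4, 96 of 141 (68.1%). A gene mean with one sign on all arrays makes such agreement more likely, so these shares are descriptions.

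Of the markers of ES cells that could be read, Esrrb had a mean of 0.07 ± 0.17, Klf4 of 0.14 ± 0.18 and Zfp42 of -0.02 ± 0.22 (n = 4 each). Sox2 was at 0.17 ± 0.63, set by 1.11 on replicate 2 beside -0.24, -0.03 and -0.16 on the others. Pou5f1 and Utf1 are on the array but had too few untreated values, and no probe was named Nanog or Tdgf1. A ratio does not show whether a marker is present, so the labelled cell type could not be checked by level. Of the 16 measured genes of the naive pluripotency list, 11 had positive and 5 negative means, with a median of 0.10, against a median of -0.000396 over all features tested. Only Klf2 had one sign on all 4 arrays, 1 of 15 members with 4 values. Pecam1, an adhesion receptor of ES and endothelial cells, had values of -0.04, 0.06, 1.14 and 0.71. Gdf3, a TGF-beta family ligand, ranged from -1.73 to 4.35, and Jam2, a junction protein, had a mean of -0.30 ± 0.21. In bulk cultures a different share of cells of a type and a different amount of RNA per cell cannot be told apart.

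The list of primitive and parietal endoderm genes had the lowest median of the 37 lists, -0.40. Of its 19 measured members, 14 had negative and 5 positive means. Among 17 with 4 values, 7 were negative on all 4 arrays (41.2%, against 7.21% of all features). All 37 lists were written with earlier results of these data known, so such shares are descriptions. At an unadjusted p under 0.05 there were 7 negative members and 0 positive, against 3.67% and 3.7% of all features. Besides Dab2 and Serpinh1 they were Sparc, Pth1r, Ctsl, Ctsh and Apoe. Sparc, a secreted collagen-binding protein of basement membranes, had values of -0.68, -0.88, -0.68 and -0.97 (mean -0.80 ± 0.15). It rests on 3 probes, of which 2 had means of -1.09 and -1.05 and the third -0.27. Pth1r, a receptor of parietal endoderm for parathyroid hormone-related protein, had values of -0.73, -0.54, -0.67 and -0.78 (mean -0.68 ± 0.10). Both cathepsins of the list, lysosomal proteases, were negative throughout, Ctsl with -0.34, -0.56, -0.90 and -1.15 and Ctsh with -0.68, -0.81, -0.64 and -0.53. Apoe, the lipid carrier, had a mean of -0.40 ± 0.13.

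The transcription factors that define this lineage did not share that pattern. Gata6 had values of -0.53, 0.22, 0.25 and 0.33 (mean 0.07 ± 0.40), and Sox17 had 1.06, -4.36, -0.09 and -0.24, a mean of -0.91 ± 2.37 set by replicate 2. No probe was named Gata4 or Sox7. Afp, the fetoprotein of visceral endoderm, was at -0.04 ± 0.21. Col4a1, a collagen of basement membranes, was the only member positive on all 4 arrays (mean 0.14 ± 0.06). With the Cy3 arrays turned the median of the list would be 0.02 in place of -0.40, and 0 and 1 members would then have one sign throughout.

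Genes of the actin cytoskeleton leaned the same way in larger number. Of 49 measured members, 36 had negative and 13 positive means, with a median of -0.17. Of 48 with 4 values, 16 were negative on all 4 arrays (33.3%) and 0 were positive on all 4. Over all features these shares were 7.21% and 6.76%. The median was negative on each array, at -0.12, -0.11, -0.25 and -0.25. At an unadjusted p under 0.05 there were 8 negative members and 0 positive, against 3.67% and 3.7% of all features. With no centring of the arrays 11 of 48 were negative throughout, against 4.8% of features, and with dim spots masked 14 of 39, against 7.6%.

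The 16 members fall into calcium-binding and membrane-linking proteins, actin-binding proteins and focal adhesion proteins. S100a6, a calcium-binding protein, had values of -0.48, -0.42, -0.88 and -0.62 (mean -0.60 ± 0.20), and its relative S100a11 had a mean of -0.39 ± 0.25. Anxa2, an annexin that joins membranes to actin, had values of -0.47, -0.41, -0.76 and -0.72 (mean -0.59 ± 0.18). Gsn, gelsolin, which severs filaments, had -0.25, -0.44, -0.61 and -0.86 (mean -0.54 ± 0.26). Tmsb4x, thymosin beta 4, which sequesters actin monomers, had -0.27, -0.44, -0.54 and -0.43, with 2 of 4 spots dim. Pfn1, the monomer-binding profilin, had -0.16, -0.06, -0.54 and -0.62. Vcl, the focal adhesion protein vinculin, had -0.37, -0.59, -0.23 and -0.93, and Pdlim7 had -0.63, -1.36, -0.39 and -0.29. The 3 ERM proteins, which tie actin to the membrane, were all negative but small, Ezr at -0.08 ± 0.03, Msn at -0.16 ± 0.05 and Rdx at -0.22 ± 0.20. The other 5 were Flnc, Tagln2, Lasp1, Myl6 and Enah, with means from -0.54 to -0.18. With the Cy3 arrays turned, 2 members would be positive and 1 negative throughout, and the median would be 0.08.

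**Figure D3:**
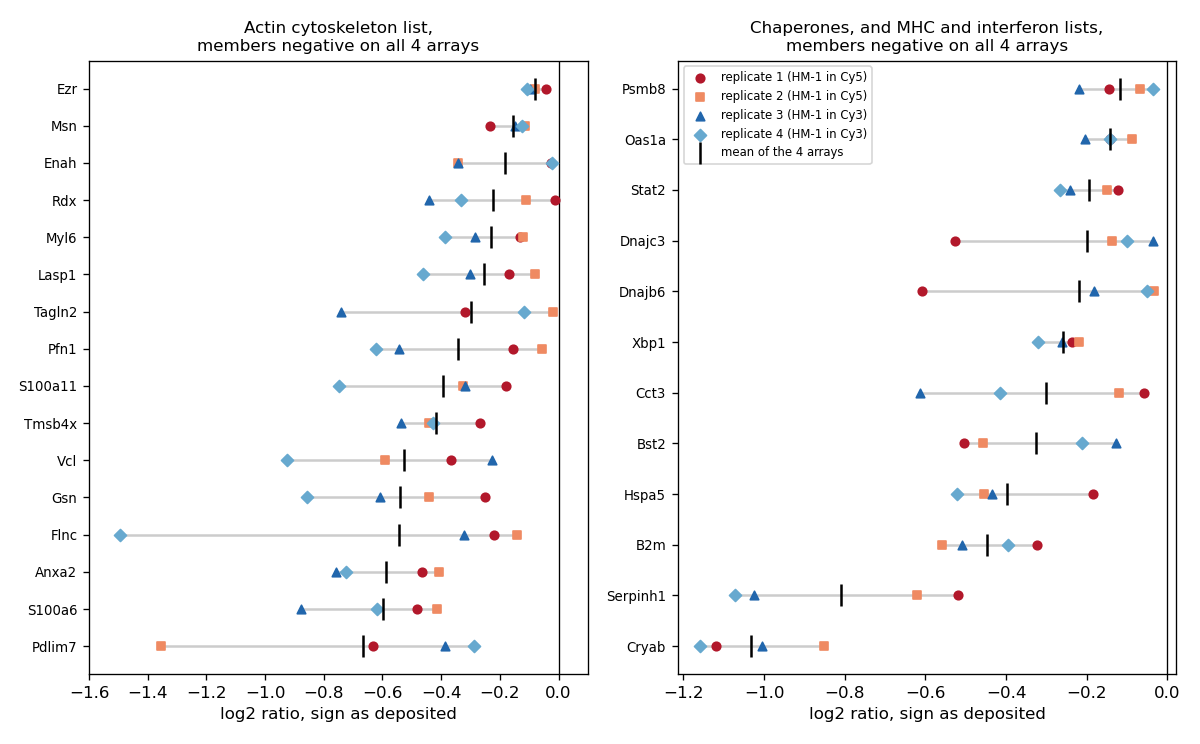
Log2 ratio on each untreated array for the list members that were negative on all 4 arrays: 16 of the actin cytoskeleton list (left), and 7 of the chaperone list with 5 of the major histocompatibility (MHC) and interferon list (right). Symbols are arrays (red and orange, HM-1 in Cy5; blue, HM-1 in Cy3) and the black tick is the mean; only members chosen for their sign are drawn.

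The list of fibroblast genes, which stand for a feeder layer, had 28 measured members with a median of -0.14. Of 26 with 4 values, 8 were negative on all 4 arrays (30.8%, against 7.21% of all features). Col6a2 alone was positive on all 4. Without centring 6 of 26 were negative, against 4.8%, and without replicate 1 there were 12 of 27, against 16.4%. S100a4, a marker of fibroblasts, had values of -0.36, -0.43, -0.78 and -0.92 (mean -0.62 ± 0.27). Thbs1, the matrix protein thrombospondin 1, had -0.61, -0.70, -0.55 and -0.59 (mean -0.62 ± 0.06). Timp2, an inhibitor of matrix metalloproteases, had a mean of -0.54 ± 0.19, Ccn2 of -0.41 ± 0.11 and Lgals1 of -0.38 ± 0.09. The probes of Ccn2 differed, with means of -0.02 and -0.79. Timp3, Fstl1 and Thy1 were the other members negative throughout. The collagens that define fibroblasts did not repeat this: Col1a1 had a mean of -0.31 ± 2.82 (n = 3), Col3a1 changed sign with the dye label, and Col1a2 and Postn were not of one sign. The list shares 3 measured genes with the actin list, and the part of feeder cells in these ratios was not tested.

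In the list of adhesion, junction and matrix genes 26 of 35 measured members had negative means (median -0.15). Of 33 with 4 values, 7 were negative on all 4 arrays (21.2%, against 7.21% of all features). Besides Gpc4 these included Podxl, a sialomucin of the apical membrane, with -0.84, -0.72, -1.10 and -0.44 (mean -0.77 ± 0.27). Itgb1, the integrin beta 1 chain, had a mean of -0.24 ± 0.12 over 6 probes, and Agrn, agrin, had -0.26 ± 0.25. Lama5, Col18a1 and P4ha1 completed the group. Cd9, a tetraspanin, followed the dye label with -0.17, -0.18, 0.81 and 1.53. Without centring the count was 4 of 33, against 4.8% of features, and without replicate 2 it was 12 of 35, against 11.6%.

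Chaperones and proteins of the unfolded protein response pointed both ways. Of 37 members with 4 values, 7 were negative on all 4 arrays (18.9%) and 3 positive on all 4 (8.11%). Over all features the shares were 7.21% and 6.76%. The median was -0.07 over the 38 measured. The negative members include Hspa5 (BiP), the main chaperone of the endoplasmic reticulum, with -0.19, -0.45, -0.43 and -0.52 (mean -0.40 ± 0.15). Xbp1, a transcription factor of the unfolded protein response, had a mean of -0.26 ± 0.04. Cct3, a chaperonin subunit, had a mean of -0.30, Dnajb6 of -0.22 and Dnajc3 of -0.20, and Serpinh1 and Cryab, described above, also belong to this list. The positive members were the heat shock proteins Hspa1b (0.24, 0.26, 0.45 and 0.50), Hspa4 and Hspa9. Hspa4 had 5 of 7 spots dim. The probes of Hspa9 disagreed, with means of -0.12, -0.06, 0.27 and 0.53. Those of Dnajb6 disagreed as well, with means from -0.15 to 0.12. Without replicate 1 the negative count was 12 of 37, against 16.4% of features, and without replicate 3 it was 11 of 37, against 11.9%.

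Of 20 genes of antigen presentation and interferon response with 4 values, 5 were negative on all 4 arrays (25%) and 3 positive (15%). The shares over all features were 7.21% and 6.76%. B2m, the light chain of class I molecules, had -0.32, -0.56, -0.51 and -0.40 (mean -0.45 ± 0.11). Bst2, an interferon-induced membrane protein, had -0.50, -0.46, -0.13 and -0.21. Stat2, Oas1a and Psmb8 were negative throughout with means between -0.19 and -0.12. Irf9, which acts together with Stat2, was positive at 1.01, 0.23, 0.98 and 2.77, and Ifitm1 and Ly6e were positive as well. Without replicate 4 there were 8 negative of 20, against 12% of features. With dim spots masked 3 of 9 were left, against 7.6%, and none positive. Without centring 4 were negative and 1 positive of 20, against 4.8% and 5.72% of features. Ifit3, an interferon-induced gene, followed the dye label with -1.41, -0.90, 0.05 and 0.57.

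**Figure D4:**
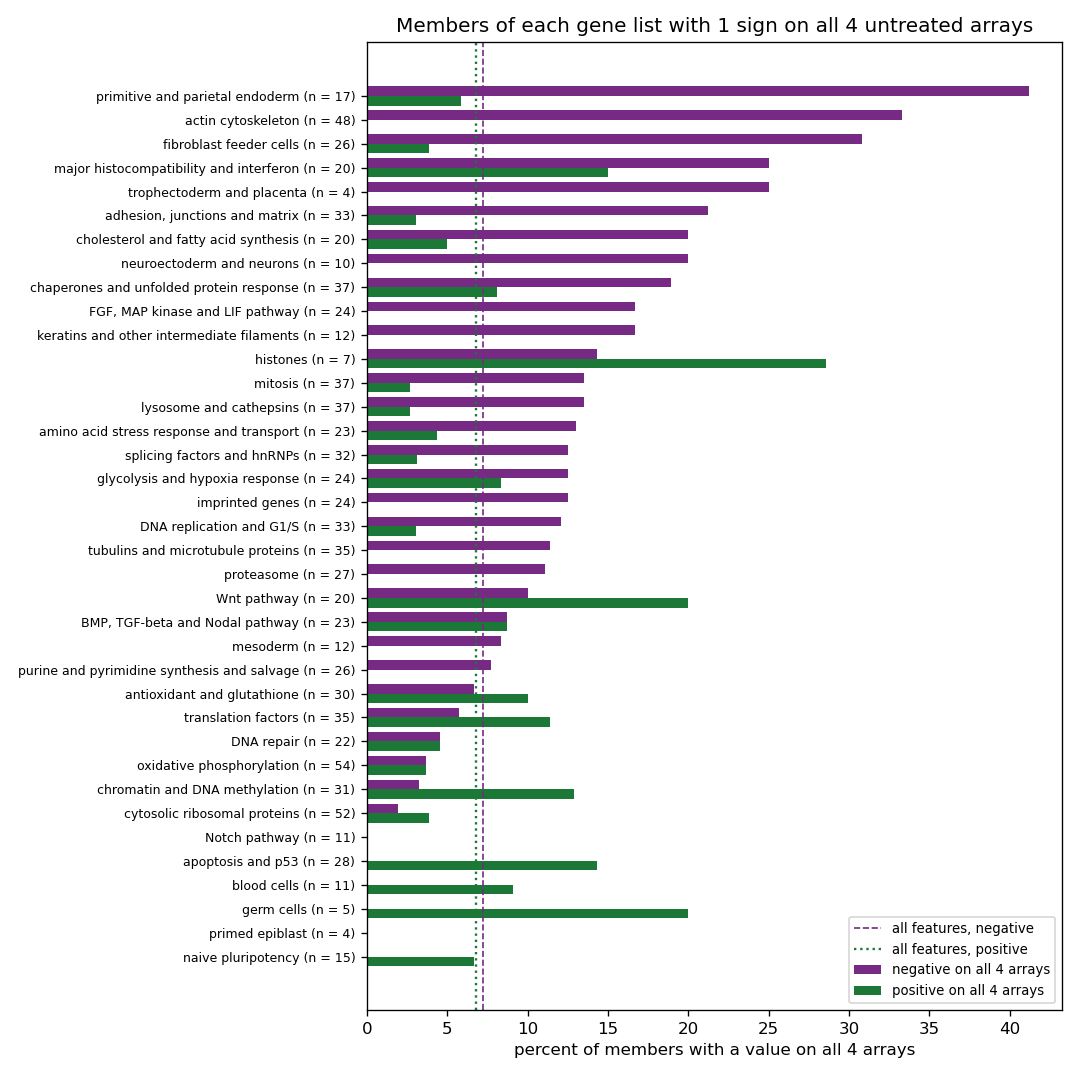
Percent of the members of each of 37 gene lists that were negative (purple) or positive (green) on all 4 untreated arrays, over the members with a value on all 4 (n beside each name). The dashed and dotted lines give the same share over all features, 7.21% and 6.76%; the endoderm, actin and fibroblast lists reach 41.2%, 33.3% and 30.8% negative.

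Of the cholesterol and fatty acid genes 4 of 20 were negative on all 4 arrays (20%, against 7.21% of all features) and 1 was positive. The negative ones were the desaturases Scd1 (-0.19, -0.40, -0.45 and -0.58) and Scd2, and the sterol enzymes Dhcr7 and Msmo1. Fads1, another desaturase, was positive at 0.49, 0.86, 0.63 and 0.58. Its 3 probes disagreed: 1 had a mean of 2.13 with 3 dim values, the others had means of -0.12 and 0.28. With dim spots masked 2 of 15 were negative, against 7.6%, and 0 were positive, against 6.57%. Of the lysosome list 5 of 37 were negative throughout (13.5%), with Ctsz at -0.55 ± 0.18 and Atp6v0e, a proton pump subunit, at -0.36 ± 0.22 beside both cathepsins named above. With dim spots masked there were 3 of 27, against 7.6%, and without replicate 1 there were 10 of 37, against 16.4%. Of the glycolysis and hypoxia list 3 of 24 were negative (12.5%), among them the prolyl hydroxylase P4ha2 at -0.42 ± 0.23. In this list 2 were positive, the lactate exporter Slc16a3 at 0.82 ± 0.40 and Ldhb. The probes of Slc16a3 disagreed, with means of 0.11 and 1.53. Ddit4, a gene of the hypoxia response, followed the dye label with -0.37, -0.16, 0.86 and 0.75. Without replicate 3 there were 5 of 25 negative, against 11.9%, and without replicate 4 there were 5 of 24 positive, against 11.9%.

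Purine salvage was of interest because HM-1 is known to lack Hprt. No probe was named Hprt or Aprt, so the defining genes of salvage could not be read. Adk, which phosphorylates adenosine, had values of -0.45, -0.34, 0.03 and -0.55 (mean -0.33 ± 0.25, n = 4). Ada, which deaminates adenosine, had a mean of -1.13 ± 2.03 (n = 3) with 2 of 3 spots dim. Of the 30 measured genes of purine and pyrimidine synthesis and salvage, 19 had negative and 11 positive means. Of 26 with 4 values, 2 were negative on all 4 arrays (7.69%, against 7.21% of features), Dguok and Uck2, and 0 were positive. Tk1, thymidine kinase, had -2.06, 0.63 and 0.08 on replicates 2 to 4, and Rrm1 and Pfas had means of -0.31 ± 0.27 and -0.23 ± 0.35. Without replicate 1 there were 10 negative of 28, against 16.4%, and without replicate 3 there were 6 of 27, against 11.9%. With dim spots masked there was 1 of 21, against 7.6%.

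In the BMP, TGF-beta and Nodal list 2 of 23 members were positive on all 4 arrays and 2 negative. Each is 8.7%, against 6.76% positive and 7.21% negative of all features. Lefty1, an inhibitor of Nodal, had values of 0.61, 0.61, 0.18 and 0.52 (mean 0.48 ± 0.21). Id1, a target of BMP signalling, had -0.28, -0.38, -0.46 and -0.33 (mean -0.36 ± 0.07). Of the signal transducers, Smad3 had -0.20, 0.60, 1.07 and 0.84, and Smad5 had -0.06, -0.12 and -0.81 on replicates 1 to 3. Without replicate 2 the list had 6 positive and 4 negative of 23, against 12.3% and 11.6% of features, and without replicate 4 it had 5 negative of 24, against 12%.

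In the Wnt list 4 of 20 were positive throughout (20%, against 6.76% of all features), namely Csnk1e, Fzd3, Wnt3 and Sfrp2. The 2 negative members were Wnt5a and Porcn. These counts depend on the setting. Without centring 1 of 20 was positive (5%, against 5.72% of features) and 1 negative (5%, against 4.8%). With dim spots masked 4 of 16 were positive (25%, against 6.57%) and 0 negative, against 7.6%. Without replicate 4 there were 7 positive and 4 negative of 21, against 11.9% and 12% of features. Porcn, which attaches the lipid of Wnt ligands, had a mean of -0.71 ± 0.32 with 5 of 10 spots dim. Wnt4, a ligand, had 1.27, 0.56 and 2.53 on its 3 arrays, with 2 of 3 spots dim, and Tcf7l2, a nuclear effector, had 0.06, -0.19, -0.60 and -0.79.

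In the FGF, MAP kinase and LIF list 4 of 24 were negative (16.7%, against 7.21% of all features) and 0 positive. The 4 were Egr1, Etv4, Jak1 and Pim1. Egr1, an immediate early gene, had values of -0.08, -1.34, -0.93 and -1.07, and the receptor Fgfr4 had -1.41, -1.31, 0.46 and -0.26. Without centring 1 of 24 was negative in this list, against 4.8% of features, and with dim spots masked 2 of 17, against 7.6%. Without replicate 1 there were 8 of 26, against 16.4% of features.

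In the mitosis list 5 of 37 were negative on all 4 arrays (13.5%, against 7.21% of all features). Among them Cdk1, the mitotic kinase, was at -0.24 ± 0.11 and Cenpe, a kinetochore motor, at -0.34 ± 0.06. Kif20a, Cenpa and Ncaph were the others, and Cdc25b alone was positive. The members of small p also held larger and more variable ratios. Ccna2, cyclin A2, had 4.95, -0.66 and 0.83 on replicates 2 to 4 with 3 of 5 spots dim, Mad2l1, a checkpoint protein, had -0.14, -0.12, 0.82 and 0.77, and the spindle protein Tpx2 had 0.02, -0.04, -0.48 and -0.78. With dim spots masked 2 of 30 were negative (6.67%, against 7.6%), and without centring 3 of 37, against 4.8%. Without replicate 1 there were 11 of 38, against 16.4%.

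Of 33 genes of DNA replication 4 were negative throughout (12.1%, against 7.21% of all features), with Ccne1, cyclin E1, at -0.33 ± 0.27. Without centring this was 1 of 33 (3.03%, against 4.8% of features), and without replicate 1 it was 10 of 35, against 16.4%. Gmnn, geminin, which blocks relicensing of origins, had 3.15, 2.10 and 0.78 on replicates 2 to 4 (mean 2.01 ± 1.19, n = 3), with 2 of 3 spots dim. E2f1, a transcription factor of the G1/S transition, had 1.55, 0.36 and 0.70 on its 3 arrays (mean 0.87 ± 0.61), and the inhibitor Cdkn1a had 0.08, -0.03, 0.63 and 0.40.

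Among tubulins and microtubule proteins, the targets of the drug used in the other experiment, 24 of 41 had positive means. Of 35 with 4 values, 4 were negative on all 4 arrays (11.4%, against 7.21% of all features). Tubb6, a beta tubulin, had -0.12, -0.21, -0.51 and -0.67, and Map1lc3a had a mean of -0.33 ± 0.17. Kif5b, a kinesin heavy chain, had 1.95, 1.21 and 1.36 on replicates 2 to 4 with 2 of 3 spots dim, and Tubb2a had -4.11, -3.67 and 0.53 on replicates 1 to 3. Without replicate 1 there were 9 negative of 38, against 16.4%.

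In the apoptosis and p53 list 4 of 28 were positive (14.3%, against 6.76% of all features) and 0 negative. Sesn1, a p53 target, had values of 0.62, 1.5, 0.95 and 1.1 (mean 1.04 ± 0.37, with 2 of 4 spots dim), and Bcl2 had 1.11, 1.04, 0.63 and 0.04. Diablo, a mitochondrial activator of cell death, had -1.29, -1.69, 0.01 and 0.00, and Casp2 had -1.47, -0.90 and -0.37 on replicates 1 to 3. With dim spots masked 2 of 19 were positive, against 6.57%. Without replicate 1 there were 7 positive and 5 negative of 28, against 15.7% and 16.4%.

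**Figure D5:**
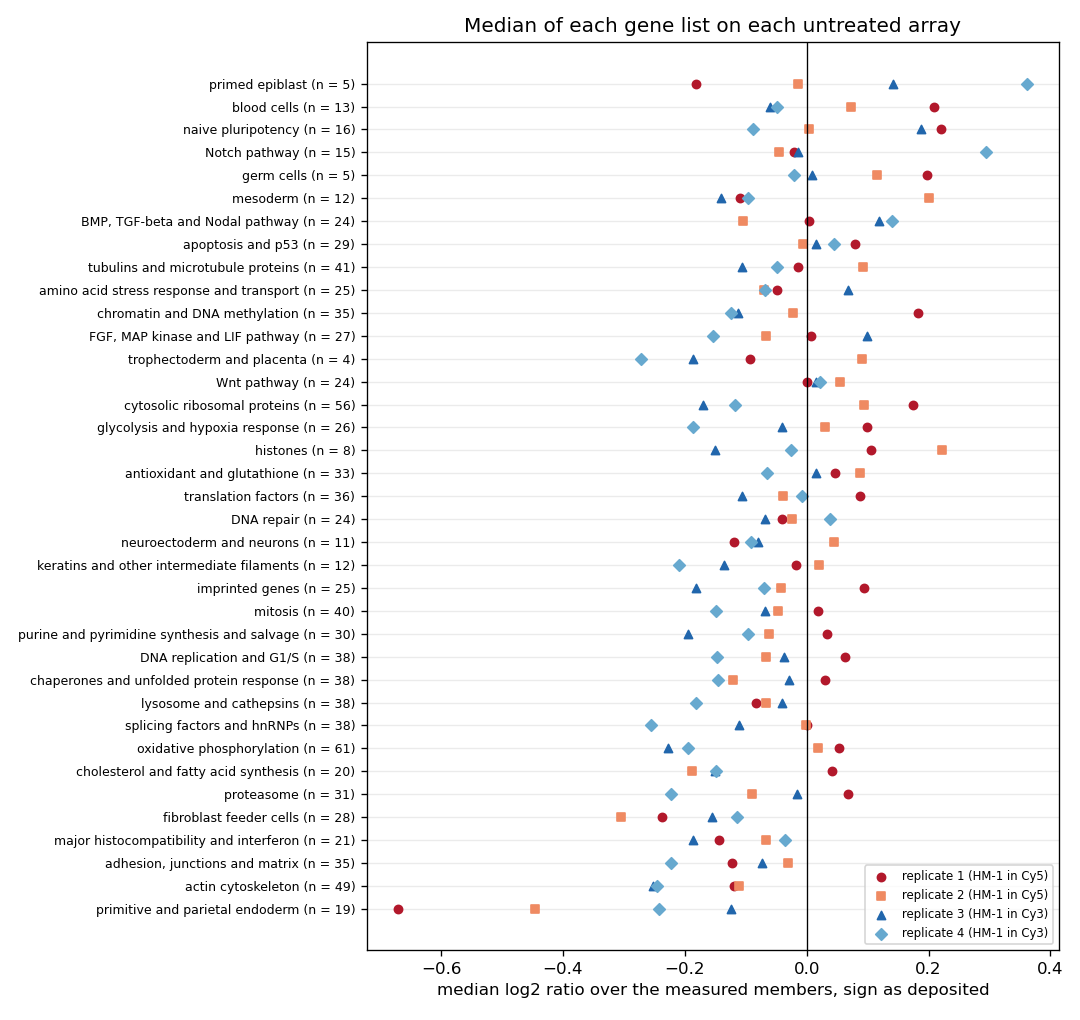
Median log2 ratio of the measured members of each of 37 gene lists (n beside each name) on each untreated array, ordered by the median of the fitted ratios between the lines. Red and orange symbols are arrays with HM-1 in Cy5 and blue symbols arrays with HM-1 in Cy3; the actin, fibroblast and endoderm medians are negative on all 4 arrays, while those of ribosomal proteins and oxidative phosphorylation split by dye label.

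Ribosomal proteins and oxidative phosphorylation followed the dye label more often than the sign of the table. Of 52 ribosomal protein genes with 4 values, 22 were positive on both arrays with HM-1 in Cy5 and negative on both with HM-1 in Cy3, and 1 did the reverse, beside 10.6% and 9.84% of all features. The array medians of the list were 0.17, 0.09, -0.17 and -0.12. Rpl9 of the large subunit had values of 0.27, 0.17, -0.32 and -0.46, and Rps20 of the small subunit had 0.25, 0.10, -0.34 and -0.31, both named after their values were seen. The members of smallest p for the ratio between the lines were Rps15a, Rpl32 (0.66, 1.26, 0.48 and 0.95, with 4 of 6 spots dim), Rpl39 (-4.27, -4.18 and 0.12 on replicates 1 to 3) and Rpl5 (-2.17, 0.95 and 0.62 on its 3 arrays). Of 54 respiratory chain and ATP synthase genes, 12 were positive in Cy5 and 2 the reverse, with array medians of 0.05, 0.02, -0.23 and -0.19. Cox5b, a subunit of complex IV also named afterwards, had values of 0.15, 0.20, -0.43 and -0.39. The members of smallest p for the ratio between the lines, Sdhc, Atp5l, Ndufb3 and Cox6b1, had means between -0.25 and -0.21. Dim spots were fewer among features of this pattern (8.44%) than among features with no such pattern (15.9%).

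The genes that followed the dye label most closely by p were of no common kind. Snrpd3, a core protein of the spliceosome, had values of 0.96, 0.91, -0.26 and -0.33, and its dye component was 0.61 with an SE of 0.08 (adjusted p = 0.397). Chic2 had -1.82, -1.48, 1.48 and 1.58, a component of -1.59 with an SE of 0.11. Stim2, the calcium sensor of the endoplasmic reticulum, had 3.44, 2.73, -1.37 and -0.90, with 4 of 4 spots dim. The other 9 were Uimc1, Twist2, Ado and Acot11, positive in Cy5, and Pigv, Cyp4f13, Klhl7, Rgs8 and Man2c1, negative in Cy5. Their values change sign within the 4 arrays, so under the reading with the Cy3 arrays turned these 12 genes and not the 24 above would lead the comparison. Of their spots, 18 of 66 were dim (27.3%).

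The genes of a chromosome did not move together by more than a few hundredths. Over 20 chromosomes with between 218 and 803 measured genes, the median log2 ratio lay between -0.04 and 0.02, and on single arrays between -0.05 and 0.07.

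The 4 arrays from cells given nocodazole compare the same lines and share no array with the untreated ones. The test of the difference between the conditions called 0 of 14015 features (0%) in limma, with a smallest adjusted p of 0.138 and 461 (3.29%) at an unadjusted p under 0.05. Without untreated replicate 1 it called 1 unnamed probe (adjusted p = 0.0487). Of the 12 leading negative genes 11 had a negative mean with nocodazole, but none was negative on all 4 of those arrays, and without nocodazole replicate 1 the count was 9. Dab2 had 1.27, -0.82, -1.22 and -1.08 there, and Cryab had 1.18, -1.08, -1.58 and -1.07. Krt8, Spink1, Gpc4 and Serpinh1 showed the same sequence, so that 6 of the 12 were positive on nocodazole replicate 1 and negative on the other 3 arrays. Of the 12 leading positive genes 8 had a positive mean, 7 without replicate 1, and Lpcat1 alone was positive on all 4, at 0.03 to 0.14.

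The same signs were counted over all named genes. Of 626 named genes negative on all 4 untreated arrays and measured with nocodazole, 434 (69.3%) had a negative mean there, against 52.8% of 8726 named genes. Without nocodazole replicate 1 the shares were 74.4% and 52.3%. On that replicate alone they were 24.8% and 47.1%, so the sign there was mostly the opposite one. Of 481 genes positive on all 4 untreated arrays, 247 (51.4%) had a positive mean with nocodazole, against 47.2%. The label of nocodazole replicate 1 puts HM-1 in Cy5, as on replicates 2 and 3, and which label or value is at odds was not tested.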

How the data were processed

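The values are log2 ratios as the authors deposited them, 1 for each probe on each array; scanner output was not analysed here. For software, background and normalization the entry is: not given in the sources used here. That the scale is log2 was inferred from the values, and direction and normalization stay unknown. Arrays hold 1 added offset each, with medians as deposited of 0.107, 0.072, -0.191 and -0.005 on untreated replicates 1 to 4. A ratio with denominator 0 is coded as 100000 (16.6 on the log2 scale plus the offset). These codes, 91 to 203 per untreated array, are positive where HM-1 is in Cy5 and negative where it is in Cy3. They were set to missing, arrays were centred on their median, and probes of 1 gene were averaged. No intensities were at hand, and the number of arrays limits the precision.

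Symbols came from the platform's annotation (1 symbol for 14030 probes, several for 5, none for 6320), of which 13994 matched the RefSeq table (GRCm38.p6). Limma 3.58.1 (R 4.3.3, statmod 1.5.0) was fitted with lmFit and eBayes to the 4 untreated arrays. The terms were an intercept and the dye label, and the p-values were two-sided with Benjamini-Hochberg adjustment. The change with nocodazole was fitted over all 8 arrays with the same dye term. The fit was tested on simulated data. A dim value equals a ratio of whole numbers up to 10 within 0.0015 on the log2 scale.

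The comparison and the 37 gene lists were chosen with earlier results of these data known. Named genes follow a rule: the 12 positive and 12 negative of smallest p with one sign on 4 arrays and a mean of at least 0.5 in size, 6 in each direction for the dye label, and the 4 of smallest p in each list. Further list members with one sign on all 4 arrays were named after their values were seen. Alternatives were the coded values, centring, array spread, dim spots, the minimum of arrays, the dye term, all 8 arrays in the fit, robust variances, array weights, the replicate block and leaving out each array.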

Additional observations from a re-analysis of the deposited data

Results flagged for a closer look

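In 3 of 73 groups of 4 array values (named genes and list medians) 1 array stood far from the others, where chance gives about 1 in 20. The median of the mesoderm list was 0.20 on untreated replicate 2, against -0.11, -0.14 and -0.10 on replicates 1, 3 and 4. The median of the Notch list was 0.29 on untreated replicate 4, against -0.02, -0.05 and -0.01 on the others. The median of the amino acid stress list was 0.067 on untreated replicate 3, against -0.05, -0.07 and -0.07.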

How the results depend on the processing

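The 0 features past the threshold for the ratio between the lines and for the dye component stayed at 0 under every alternative run. Counts at an unadjusted p under 0.05 stayed within 1.5 times, 719 to 1176 for the ratio between the lines, 922 to 1401 for the dye component and 370 to 579 for the change when 1 array was left out. For the change, 0 to 1 features passed when an array was left out, the 1 being without untreated replicate 1. Between arrays of one replicate number the correlations of the deviations were 0.13, 0.02, -0.05 and 0.09. The nocodazole array of highest correlation had the same number for untreated replicates 1 and 4 but not for 2 and 3. Correlations this small do not settle whether the numbers pair the conditions. The fit with a replicate block called 0 features for the change, with 541 at an unadjusted p under 0.05. Without the dye term the ratio between the lines held 745 features at an unadjusted p. Of 330 alternative means of the leading genes 329 kept their direction. These genes were chosen for having the same sign on every untreated array. Leaving out an array or changing the variances therefore could not turn a mean, and under those settings the count does not test the signs. Vsir, with 1 coded spot, turned to 0.66 with the coded values kept. Of 333 alternative list medians, taken over plain means, 328 moved by less than the spread between arrays. The median of the mitosis list was -0.13 without replicate 3. The list counts under other settings were added after seeing the data. A minimum of 2 arrays tested the same features, since 2 values leave no residual spread beside the dye term. Ratios carry no brightness, so the precision of a single spot is unknown.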

Other observations

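Other lists held a few members with one sign on all 4 arrays, beside 7.21% of all features negative and 6.76% positive. Several of these counts disappear under another setting. Among imprinted genes 3 of 24 were negative and 0 positive, with Peg3 at -0.25, -0.59, -0.58 and -0.39, and without replicate 1 there were 7 negative of 24, against 16.4%. Grb10 had a mean of -0.36 ± 0.42 and Phlda2 of -1.01 ± 2.01 (n = 3). Among chromatin genes 4 of 31 were positive throughout, Dnmt1, Bmi1, Mbd3 and Daxx, and 1 negative. Without centring, however, 0 of 31 were positive and 0 negative, against 5.72% and 4.8%. Without replicate 1 there were 7 negative of 32, against 16.4%. The maintenance methyltransferase Dnmt1 had a mean of 0.08 ± 0.05. Kdm2b and Dnmt3l, of small p but mixed sign, had means of 0.28 ± 0.36 and -0.27 ± 0.45. Of the translation factors 4 of 35 were positive and 2 negative, the latter both subunits of the exchange factor eIF2B, Eif2b5 at -0.42 ± 0.09 and Eif2b1 at -0.26 ± 0.14. Eif4g2 and Etf1 were positive at 0.81 ± 0.50 and 0.78 ± 0.62. Without replicate 1 this list had 8 negative of 35, against 16.4%, and without replicate 2 it had 8 positive of 36, against 12.3%.

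Of the antioxidant genes 3 of 30 were positive and 2 negative. Sod2 had -0.06, -0.02, -0.94 and -1.05, with 3 of 6 spots dim, Gstm2 was at 0.98 ± 0.19 (n = 3), Gss at -0.50 ± 0.63 and Hmox1 at 1.07 ± 1.32. Without replicate 1 there were 6 positive of 32, against 15.7% of features, and without replicate 2 there were 4 of 30, against 12.3%. Without replicate 3 there were 4 of 30, against 11.7%, and without replicate 4 there were 6 of 31, against 11.9%. Of the splicing factors 4 of 32 were negative, with Hnrnpa2b1 at -0.26 ± 0.21, and 1 positive. Without centring, however, 1 of 32 was negative (3.12%, against 4.8%) and 0 positive, against 5.72%. Without replicate 1 there were 12 negative of 33, against 16.4%. Snrpa1 had a mean of 0.59 ± 0.53 and Srsf4 of -0.16 ± 2.03 (n = 3). Of the proteasome genes 3 of 27 were negative and 0 positive. With dim spots masked 0 of 16 were negative, against 7.6%, and without centring 1 of 27, against 4.8%. Without replicate 1 there were 14 of 28, against 16.4%. Psmd10 (0.85 ± 0.74, n = 3), Psma6 (0.30 ± 0.28), Psma1 (-0.22 ± 0.10) and Psmb7 (-0.21 ± 0.23) had the smallest p of that list. Of the amino acid stress genes Aars was at 0.71 ± 0.75, Slc38a2 at 0.34 ± 0.28, Wars at -0.26 ± 0.17 and Herpud1 at -0.24 ± 0.24. The probes of Slc38a2 disagreed, with means of -0.32 and 1.33, the latter with 3 dim values. Of the DNA repair genes Ddb1 was at -0.27 ± 0.32, Ogg1 at 0.24 ± 0.66 (n = 3) and Ercc8 at -0.55 ± 1.01. Of the histones H4c1 was at 0.43 ± 0.48, H2az1 at 0.80 ± 0.65, H1f2 at -0.27 ± 0.23 (n = 3) and H3f3b at -0.14 ± 0.38.

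Markers of other lineages were read where a probe was present. Prph, the neuronal filament protein peripherin, had values of -0.76, -0.85, -0.84 and -1.34 (mean -0.95 ± 0.27, SD, n = 4), while Nes, nestin, was at -0.06 ± 0.15, Gap43 at -0.20 ± 0.17 and Olig2 at -0.26 ± 0.83. Of the mesoderm list Actc1 was negative on all 4 arrays at -0.34 ± 0.12, while Tbx6 (0.25 ± 0.27), Lmo2 (0.27 ± 0.46) and Tal1 (-0.40 ± 0.50) were of mixed sign. Of the trophectoderm list Ascl2 was at -0.05 ± 0.24, Bmp4 at 0.04 ± 0.32 and Gata3 at 0.05 ± 0.33. Of the primed epiblast list Sox3, Dnmt3a and Lef1 followed the dye label, and Fgf15 was at 1.21 ± 1.84 (n = 3) with 3 of 3 spots dim. Of the germ cell list Mael was positive on all 4 arrays at 0.24 ± 0.18, with Ddx4 at 0.25 ± 0.32, Piwil2 at 0.07 ± 0.17 and Tdrd1 at 0.06 ± 0.19. Of the blood list Fcer1g was positive on all 4 at 0.39 ± 0.21, with Cd44 at -0.41 ± 0.14 (n = 3), Lyz2 at -0.20 ± 0.25 and Alas2 at 0.14 ± 0.32. Of the Notch list Hey1 (0.0033 ± 2.75, n = 3), Notch4 (-0.49 ± 1.17), Dll1 (-0.07 ± 1.51, n = 3) and Aph1a (-0.40 ± 0.56) had the smallest p. The p belongs to the intercept of the fit, which for Dll1 was 0.36, opposite in sign to its mean. Of the intermediate filament genes Vim, vimentin, was at -0.22 ± 0.21 and Lmnb2, a lamin, at -0.20 ± 0.21.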
